A study of Mus musculus with 24 samples.

Results

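Pericytes are the mural cells that wrap capillaries, and their expression of the gene for the receptor PDGFRB is used to label them. The values described here follow mutant brain pericytes, sorted by flow cytometry, from embryonic days E11.5 to E13.5, in 8 of the 24 libraries of the series, 4 at each stage. Mutants had the genotype Pdgfrb-Cre, Alk5(flox/flox), Zs/+ and controls the genotype Pdgfrb-Cre, Alk5(flox/+), Zs/+. Both therefore carried the Cre driver and the ZsGreen reporter, and control cells could lose at most 1 copy of the target. The labels give the mutants the disease state GMH-IVH, germinal matrix haemorrhage with intraventricular haemorrhage. Controls, called normal in the labels, were also 4 libraries at each stage. Cre under the control of Pdgfrb acts in pericytes, smooth muscle cells and other mesenchymal cells and their descendants, and the labels call the sorted cells mesenchymal. Endothelial libraries of the series served only as a second readout at E13.5.

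Tgfbr1 encodes ALK5, a type I receptor of TGF-beta. Ligand brings it together with a type II receptor, it phosphorylates SMAD2 and SMAD3, and these enter the nucleus and switch on matrix, contractile and feedback genes. Brain pericytes of the forebrain derive largely from cranial neural crest and mesenchyme, and during the stages sampled here they spread over the growing vessel bed and lay down vascular matrix.

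The question was which genes that depend on stage reach the same place in mutants at E13.5 as in controls. For each stage the authors' deposited table holds 1 mean per group, so no spread between libraries and no depth per library was analysed here, and the change from E11.5 to E13.5 has no test. Of 25471 genes listed in the series, 20936 had a mean in both pericyte tables, and 19962 of these had an authors' mean of 10 or more in mutants at either stage and were followed. At that limit Htr2b, at 9.99, lay just outside and Gm26910, at 10.02, just inside. The stage change is log2(E13.5/E11.5) of the group means, with the median over all genes followed set to 0. Before this the median was 0.45 in mutants and 0.43 in controls. The tables were normalized separately, so stage and processing cannot be told apart in the change itself. The difference between the mutant and control stage changes is free of that scaling, because it equals the difference of 2 ratios taken within tables, and it was tested over all 19962 genes with standard errors (SE) implied by the authors' ratio and p.

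Values of the series as a whole bear on these data as follows. Tgfbr1 (chr4:47353222-47414931, mm10) had authors' means of 6196 in mutants and 4609 in controls at E11.5 and of 5823 and 5700 at E13.5. Mutants over controls, this was 0.43 (SE 0.27) and 0.03 (SE 0.08) on the log2 scale, so a mean over the whole gene gave no check of the deletion, which removes only the floxed part. The ribosomal RNA gene CT010467.1 took 0.150% of the summed mutant means at E11.5 and 6.48% at E13.5, against 0.145% and 7.23% in controls. The median stage change in mutants was -0.35 in the shortest 25% of genes by exonic length and 0.59 in the longest 25%, with -0.30 and 0.46 in controls. The share of these in any stage change was not tested. Xist, which is transcribed in female cells, had an authors' mean of 5.73 in mutants and 36145 in controls at E13.5 and no mean in the E11.5 table used here. The part of embryo sex in the results was not tested, and the 808 X-linked genes followed had a median stage change of -0.04 in mutants and 0.02 in controls. The median SE of a log2 ratio was 0.23 at E11.5 and 0.12 at E13.5, and these measure the spread between samples, for which the labels name no litters.

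Most genes with a large stage change in mutant pericytes had one in the same direction in controls, and more genes passed 2-fold in mutants. In mutants 5152 genes (25.8%) were higher at E13.5 by 2-fold or more and 3635 (18.2%) were lower, 44% in all. In controls 4151 (20.8%) were higher and 3070 (15.4%) lower, 36.2% in all. Both genotypes passed 2-fold in the same direction for 6523 genes and in opposite directions for 6. Across genes, which are not independent replicates, the mutant change had a slope of 1.10 on the control change, a Pearson r of 0.937 and a standard deviation of 1.42, against 1.21 in controls. Changes of 4-fold or more upward numbered 2189 in mutants and 1217 in controls, and downward 621 and 555. The split between higher and lower depends on the scaling. Of the genes past 2-fold in mutants 58.6% were higher, and this became 47.5% when the columns were scaled to their sums, which moved the median change to -0.21, and 71.9% when the median of genes with means of 1000 or more was set to 0, which moved it to 0.26.

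**Figure D1:**
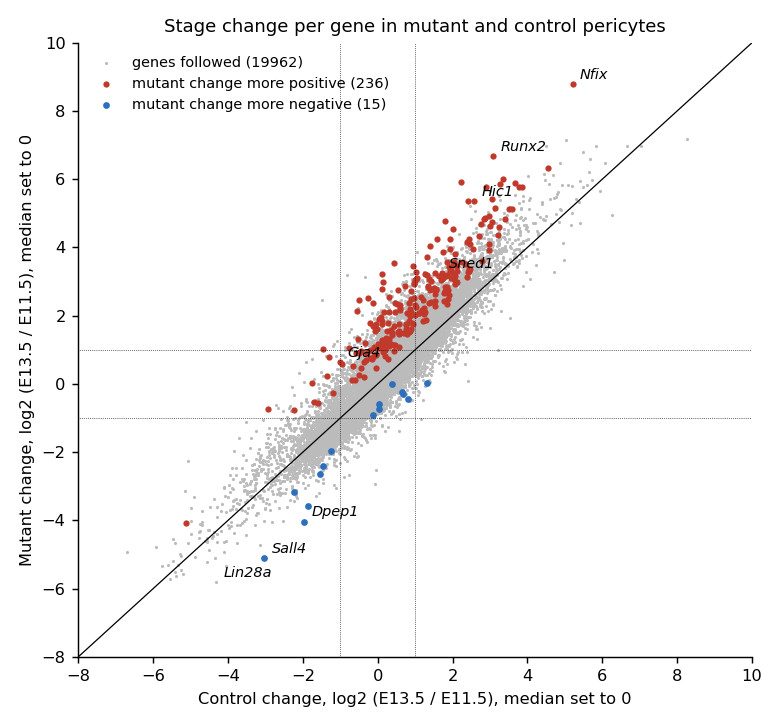
Each grey point is 1 of 19962 genes, with its control stage change on the x axis and its mutant stage change on the y axis, both log2 with the median set to 0. Coloured points are the 236 genes whose mutant change was more positive (red) and the 15 whose mutant change was more negative (blue) at an adjusted p under 0.05, the diagonal marks equal change and the dotted lines mark 2-fold.

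The difference between genotypes in the stage change passed an adjusted p of 0.05 (normal test with the implied SE, Benjamini-Hochberg over 19962 genes) for 251 genes, 1.26% of those tested. The mutant change was more positive for 236 (1.18%) and more negative for 15 (0.0751%). The 236 had a median change of 2.38 in mutants and 0.97 in controls. Of them 215 were called different between genotypes at E11.5, 9 at E13.5, 2 of them at both, and 14 at neither stage. The ratios of both stages are terms of the difference that chose these genes, so the medians and counts are given as values only. Across all genes the test statistics were 1.30 times as wide as a standard normal by their median size. When they were divided by this, only 6 genes kept the call, Fst, Hic1, Adamtsl2, Nfix, Gja4 and Abca1.

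The largest positive stage changes in mutants, among genes with a mean of 100 or more and leaving out predicted genes, included those of Nfix, Slc26a7, Col11a2, Ltbp2, Iglon5, Runx2, Agap2, Acan and Tmem252. A choice on the mutant change favours genes that change more in mutants than in controls. The comparisons of these genes with controls are therefore given as values only. Nfix, which encodes a nuclear factor I transcription factor (chr8:84699876-84800344), went from an authors' mean of 11.1 in mutants at E11.5 to 6715 at E13.5, a log2 change of 8.79. In controls it went from 141 to 7053, a log2 change of 5.21. Runx2, the master factor of bone formation, went from 33.6 to 4701 in mutants and from 466 to 5328 in controls, so the mutant change was 6.67 and the control change 3.08. Of the other 4 described here, Acan, Col11a2, Ltbp2 and Slc26a7, none passed the test of the difference. Acan, the cartilage proteoglycan aggrecan, went from 74.0 to 9048 in mutants (6.48) and from 124 to 11294 in controls (6.08). Col11a2, a cartilage collagen, changed by 6.98 and 5.83 on the log2 scale in mutants and controls. Ltbp2, which encodes a latent TGF-beta binding protein, had a mutant mean of 2.09 at E11.5, close to the lowest mean in that table, 1.02, so its log2 change of 6.98 rests on a value near the limit of the table and was 4.54 with a pseudocount of 10 added to each mean. Slc26a7, an anion transporter, went from 2.02 to 396 in mutants and from 7.83 to 342 in controls, and its mutant change of 7.16 was 4.67 with that pseudocount.

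At the other end, the pluripotency factor Sall4 went from 751 to 29.9 in mutants, a log2 change of -5.10, and from 175 to 28.9 in controls, -3.03. Myocd, the cofactor that drives smooth muscle genes, went from 1232 to 87.3 in mutants and from 1163 to 67.2 in controls, with changes of -4.27 and -4.55. Dpep1, a dipeptidase of the cell surface, went from 354 to 29.6 in mutants and from 92.4 to 32.0 in controls, and its changes of -4.03 and -1.96 differed by -2.05 (SE 0.48, adjusted p = 0.00632). Hes5, a Notch target of neural progenitors, changed by -3.80 in mutants and -3.23 in controls. Sall4 and Dpep1 had higher means than controls at E11.5 and close means at E13.5, and the Myocd changes of both genotypes were close. These genes too were chosen on the mutant change, so their comparisons with controls are given as values only.

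Every member of the nuclear factor I family began below controls and ended near them. These 4 factors act in the late steps of differentiation of many lineages. Nfia had authors' means of 1710 in mutants and 3678 in controls at E11.5, and 5692 and 5419 at E13.5. Nfib had 889 and 2119 at E11.5, and 11430 and 11850 at E13.5. Nfic had 812 and 1724 at E11.5, and 5703 and 6002 at E13.5. At E11.5 the mutant mean was below the control mean in all 4, with log2 ratios of -1.10, -1.25, -1.09 and -3.67 for Nfia, Nfib, Nfic and Nfix and deposited FDR values of 0.00732, 0.000383, 0.000557 and 7.77e-07. At E13.5 the ratios were 0.07, -0.05, -0.07 and -0.07, with SE from 0.06 to 0.12. The stage change was larger in mutants by 1.18 for Nfia (adjusted p = 0.0135), 1.20 for Nfib (adjusted p = 0.0064), 1.01 for Nfic (adjusted p = 0.00689) and 3.60 for Nfix (adjusted p = 1.04e-05). None of the 4 was within 2 percentile points of its control rank at E11.5 and all 4 were at E13.5. Their median mutant percentile was 76.7 at E11.5 and 97.2 at E13.5, and near the top of the scale unequal means can differ by few points. These counts are therefore given as values only.

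**Figure D2:**
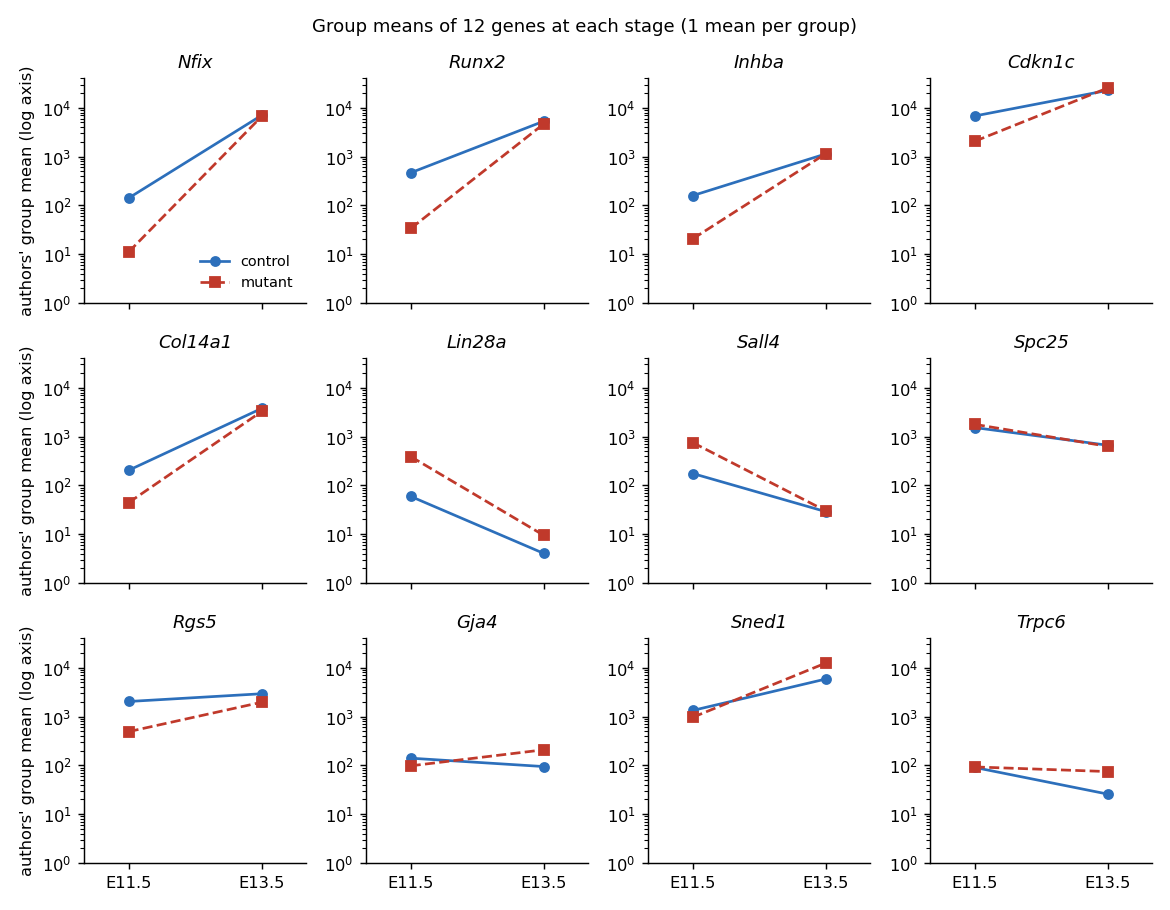
Authors' group means of 12 genes in control (blue circles) and mutant (red squares) pericytes at E11.5 and E13.5, on a log axis, with 1 mean per group and each stage normalized separately. Nfix, Runx2, Inhba, Cdkn1c, Col14a1, Sall4 and Spc25 meet or nearly meet at E13.5, whereas Rgs5, Gja4, Sned1 and Trpc6 do not, and Lin28a ends below a mean of 10 in both genotypes.

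Transcription factors of the mesenchyme were mostly higher at E13.5. Of 49 followed, 29 were higher by 2-fold or more in mutants and 1 was lower, with a median of 1.76 against 1.06 in controls and 0 over all genes. Over all genes 25.8% were higher by 2-fold or more in mutants and 18.2% lower, with 20.8% and 15.4% in controls. These shares are the background for the counts of every list below. The test of the difference passed for 8 of the 49, all more positive in mutants. Over all genes 1.18% passed in that direction and 0.0751% in the other. None of the 8 was among the 6 genes that kept the call with the statistics rescaled, and Hic1, described below, is not on this list. Within 2 percentile points of controls at E13.5 were 38 (77.6%, against 82.1% of all genes), and 11 at E11.5. Dlx5 and Dlx6, paired homeobox genes of craniofacial bone, had mutant means of 20.8 and 2.76 at E11.5 and of 539 and 230.4 at E13.5. In controls Dlx5 went from 131 to 533 and Dlx6 from 35.4 to 223, so the changes differed by 2.67 (adjusted p = 0.00534) and 3.73 (adjusted p = 0.00314). The Dlx6 mean of 2.76 lies near the limit of the table, and its mutant change of 5.93 was 3.83 with a pseudocount of 10. Osr2, a zinc finger factor of palate and limb mesenchyme, went from 112 to 1109 in mutants and from 422 to 949 in controls, a difference of 2.14 (adjusted p = 0.000374). Hic1, a repressor found in quiescent mesenchymal progenitors, went from 39.8 to 2237 in mutants and from 276 to 2212 in controls, a difference of 2.81 (adjusted p = 5.04e-06). Tbx2 and Klf4 differed by 1.85 (adjusted p = 0.01) and 1.64 (adjusted p = 0.0208). Runx2 differed by 3.61 (SE 0.79, adjusted p = 0.00274) and had a log2 ratio of -0.18 (SE 0.07) left at E13.5. Not all moved this way. Msx1, a homeobox gene of undifferentiated mesenchyme, went from 13967 to 2662 in mutants and from 10635 to 2511 in controls, and Twist1 and Prrx1 had differences of 1.09 and 0.28 that did not pass the test. Runx1 remained behind, with 97.2 in mutants and 349 in controls at E11.5 and 1413 and 1975 at E13.5, a log2 ratio of -0.48 (SE 0.11, deposited FDR 0.00544).

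Markers of cartilage and bone progenitors moved with these factors. Of 18, 14 were followed, 11 were higher by 2-fold or more in mutants and 12 in controls, and the medians of 3.78 and 2.61 were the largest of the 32 lists with 4 or more genes followed. Their summed means went from 26413 to 103221 in mutants and from 31401 to 124636 in controls. Within 2 percentile points of controls at E13.5 were 71.4% of the 14, against 82.1% of all genes. Matn4, a cartilage matrilin, went from 88.0 to 6539 in mutants and from 483 to 9350 in controls, a difference of 1.94 (adjusted p = 0.0413). Col9a3, a cartilage collagen, went from 138 to 5810 and from 539 to 7992, and its difference of 1.502 had an adjusted p of 0.236. In sorted bulk samples, more cells of a type and more RNA per cell cannot be told apart, and the part of such cells in the other changes was not tested.

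Matrix genes were mostly higher at E13.5. Of 41 fibrillar matrix genes followed, 26 were higher by 2-fold or more in mutants and 2 were lower, with a median of 2.06 against 1.39 in controls. At E11.5, 13 were called lower in mutants and none higher, where 2.7% and 0.642% of all genes were. At E13.5, 1 was called lower, where 0.164% of all genes were, namely Emilin1, which encodes an elastic fibre glycoprotein, at 11659 against 14324 (log2 ratio -0.30, SE 0.06, deposited FDR 0.000508). Within 2 percentile points of controls were 16 at E11.5 and 37 at E13.5 (90.2%, against 82.1% of all genes). The list had a median mutant percentile of 98.3 at E13.5, and near the top of the scale unequal means can differ by few points. Emilin1, though called lower, counted as similar, at percentiles of 99.06 in mutants and 99.32 in controls. The share is therefore given as a value only. The difference between genotypes in the change passed for 6 of the 41, all larger in mutants, where 1.18% of all genes passed in that direction and 0.0751% in the other. Col14a1, a collagen that binds fibrils, went from 44.3 to 3286 in mutants and from 204 to 3786 in controls, a difference of 2.00 (SE 0.53, adjusted p = 0.0233). Eln, elastin, went from 72.2 to 3448 and from 233 to 3567, a difference of 1.64 (adjusted p = 0.0212). P4ha3, a collagen prolyl hydroxylase, went from 146 to 1839 and from 447 to 2160, a difference of 1.38 (adjusted p = 0.000804). Fmod and Ogn, small proteoglycans, differed by 1.35 (adjusted p = 0.014) and 1.26 (adjusted p = 0.00658), and Col6a2 differed by 0.88 (adjusted p = 0.00561).

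Col1a1, Col3a1 and Col12a1 did not pass that test. Col1a1 went from 15585 to 126389 in mutants and from 28766 to 118865 in controls, and its difference of 0.97 had an adjusted p of 0.15. Col3a1 went from 28719 to 66054 and from 30521 to 58968, a difference of 0.25 (adjusted p = 0.552). Col12a1, a collagen that binds fibrils, went from 1131 to 43123 and from 2226 to 44025. Of 22 basement membrane genes followed, 15 were higher by 2-fold or more in mutants and none lower, with a median of 1.38 against 0.93. Fn1, fibronectin, went from 4054 to 71857 in mutants and from 7473 to 68260 in controls. Col4a6, a type IV collagen chain, differed between genotypes by 1.00 (adjusted p = 0.0431), and was the only one of the 22 to pass, against 1.18% of all genes in that direction. Hspg2, perlecan, went from 518 to 9173 and from 780 to 7740, and Col4a1, the main type IV chain, from 8120 to 16909 and from 10202 to 13574, with differences of 0.84 (adjusted p = 0.119) and 0.65 (adjusted p = 0.132).

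Genes of the TGF-beta pathway itself, whose receptor gene is floxed on both copies in mutants, were followed in order of their role. Of 23 ligands, receptors and partners, 11 were higher by 2-fold or more in mutants and none lower, with a median of 0.93 against 0.50 in controls. 4 were within 2 percentile points of controls at E11.5 and 21 at E13.5 (91.3%, against 82.1% of all genes). Among the ligands, Tgfb1 went from 8.91 to 351 in mutants and from 34.8 to 334 in controls, a difference of 2.04 (SE 0.52, adjusted p = 0.0175). Tgfb2 went from 2473 to 7338 and from 3456 to 5774, a difference of 0.83 (adjusted p = 0.00257), and Tgfb3 from 515 to 3275 and from 1553 to 3435, a difference of 1.52 (adjusted p = 0.208). Inhba, the activin A subunit, went from 20.7 to 1156 in mutants and from 159 to 1139 in controls, a difference of 2.96 (SE 0.56, adjusted p = 0.000306). Fst, follistatin, which binds activins, went from 43.2 to 192 in mutants and from 156 to 191 in controls. Its difference of 1.86 (SE 0.28, adjusted p = 6.65e-07) had the smallest p of all genes, and at E13.5 its log2 ratio was 0.01 (SE 0.15). Tgfbr2, the type II receptor, went from 865 to 3659 and from 1206 to 3597. 2 members that bind ligand stood above controls at E13.5, namely Tgfbr3, the coreceptor betaglycan, with 3492 against 2512 (deposited FDR 9.99e-05), and Lrrc32, which anchors latent TGF-beta, with 1135 against 673 (deposited FDR 3.1e-05). At that stage 0.224% of all genes were called higher.

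Among 27 targets and feedback genes of the pathway, 12 were higher by 2-fold or more in mutants and 4 lower, with a median of 0.59 against 0.32. None passed the test of the difference after Benjamini-Hochberg adjustment, and 11 had an unadjusted p under 0.05, with a more positive change in mutants for 9. Over all 19962 genes tested, 2527 had an unadjusted p under 0.05, or 969 when the statistics were divided by 1.30. Of the 27, 2 that are not among these 11 were called lower in mutants at E13.5, where 0.164% of all genes were. Both are inhibitors of the pathway that it induces. Pmepa1 went from 253 to 1699 in mutants and from 495 to 2156 in controls, with a log2 ratio of -0.34 (SE 0.08, deposited FDR 0.0117) at E13.5. Skil went from 2192 to 2108 and from 2761 to 3150, with a ratio of -0.58 (SE 0.15, deposited FDR 0.036). Smad7, another feedback inhibitor, had a ratio of -0.17 (SE 0.11) and was not called. Ccn2, connective tissue growth factor, was called higher in mutants at E11.5, with 1332 against 796 (deposited FDR 0.041), and had 1340 against 1556 at E13.5. Pmepa1 and Skil were thus below controls at E13.5, while no member of the list passed the test of the difference. Within 2 percentile points of controls were 40.7% of the 27 at E11.5 and 59.3% at E13.5, against 82.1% of all genes at E13.5.

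BMP genes and retinoic acid genes added secreted antagonists and enzymes to the set. Of 27 BMP ligands, antagonists and targets, 20 were higher by 2-fold or more in mutants and 3 lower, with a median of 1.89 against 1.25. At E13.5 66.7% of the 27 were within 2 percentile points of controls, against 82.1% of all genes. The difference passed for 5, all with a more positive change in mutants, where 1.18% of all genes passed in that direction and 0.0751% in the other. Those 5 include the antagonists Grem1 and Bmper, which went from 6.96 to 409 and from 11.6 to 928 in mutants, and from 44.6 to 498 and from 85.3 to 1119 in controls. Their differences were 2.39 (adjusted p = 0.0243) and 2.61 (adjusted p = 0.0407). Nog, noggin, differed by 1.22 (adjusted p = 0.0335). The BMP target Id3 was lower at E13.5 in both, from 6392 to 3053 in mutants and from 6485 to 3208 in controls. Retinoic acid genes had members in both directions, 6 higher and 5 lower of 17, against 25.8% and 18.2% of all genes. Of the 17, 70.6% were within 2 percentile points of controls at E13.5. Aldh1a2, which makes retinoic acid, went from 22.9 to 920.05 in mutants and from 99.0 to 968 in controls, a difference of 2.04 (adjusted p = 0.00934). Cyp26b1, which degrades it, went from 35.0 to 1722 and from 182 to 2147, a difference of 2.06 (adjusted p = 0.00065). Cyp26a1, which has the same activity, went the other way, from 489 to 54.9 in mutants and from 265 to 66.9 in controls.

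LIN28 proteins block the maturation of let-7 microRNAs, and let-7 in turn represses many genes of early embryos by pairing with their 3′ untranslated regions. The 9 let-7 family names in RefSeq (GRCm38.p6) share the seed GAGGUAG, and let-7 itself was not measured here. The mature let-7a and 1 matching site in each of 4 genes are shown because this list had the lowest median of the 32 lists with 4 or more genes followed. Capitals mark bases 2 to 8 of the microRNA and the 7 bases of each site that pair with them. Site sequences are from GENCODE M21 transcripts and are written 5′ to 3′ on the transcript as DNA letters.
mmu-let-7a-5p (chr13:48538239-48538260, minus strand): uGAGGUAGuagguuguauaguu
Lin28a site: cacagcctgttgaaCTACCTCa
Lin28b site: cccgggcgggaagtCTACCTCa
Trim71 site: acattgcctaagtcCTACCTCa
Hmga2 site: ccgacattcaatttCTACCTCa
The site CTACCTC lay in the 3′ untranslated region of 11 of the 16 genes of this axis (68.8%), which were listed partly as known let-7 targets, against 10.8% of the 13950 followed genes with such a region. It lay in 12.3% of genes higher at E13.5 in mutants and 8.22% of those lower, whose median region lengths were 1625 and 714.5 bases. A match is a description of the sequence only.

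Of these 16 genes, 8 were lower at E13.5 by 2-fold or more in mutants and in controls and 1 was higher in each, and the medians were -1.32 and -0.83. Lin28a (chr4:134003330-134018841) had authors' means of 389 in mutants and 59.4 in controls at E11.5, a log2 ratio of 2.71 (SE 0.44, deposited FDR 1.3e-06). At E13.5 the means were 9.42 and 4.02, both under 10 and without a deposited FDR. Lin28b went from 939 to 137 in mutants and from 424 to 125 in controls, and its ratio went from 1.15 (SE 0.24) to 0.13 (SE 0.20). Sall4 differed between genotypes in the stage change by -2.05 (SE 0.51, adjusted p = 0.0158), and was the only member to pass, against 0.0751% of all genes in that direction. For Lin28b and for Igf2bp1, an RNA-binding protein of early embryos that went from 20461 to 5830 in mutants and from 12465 to 5611 in controls, the differences of -1.01 and -0.66 had adjusted p values of 0.0607 and 0.0592. Trim71, a let-7 target that keeps progenitors dividing, stayed above controls at both stages, with 1164 against 482 at E11.5 and 242 against 122 at E13.5 (log2 ratio 0.98, SE 0.20, deposited FDR 0.000509). Mycn went from 1167 to 306 in mutants and from 952 to 298 in controls. Hmga2, in spite of its site, was higher at E13.5 in both genotypes, at 5268 and 5559 against 2362 and 3110 at E11.5.

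Most genes of the cell cycle lists had a negative stage change, 29 of 33 mitosis genes and 29 of 30 DNA replication genes in mutants and 28 of each in controls. Of the 33 mitosis genes 16 were lower by 2-fold or more in mutants and 1 was higher, with a median of -0.96 against -0.58 in controls. Of the 30 DNA replication genes 15 were lower and 1 higher, with a median of -0.999 against -0.47. Over all genes 18.2% were lower and 25.8% higher in mutants. No gene of either list passed the test of the difference after Benjamini-Hochberg adjustment. At an unadjusted p under 0.05 the change was more negative in mutants for 9 mitosis genes and 14 replication genes, and more positive for none. Over all 19962 genes tested, 2527 had an unadjusted p under 0.05 in either direction, or 969 when the statistics were divided by 1.30. The E13.5 ranks lay within 2 percentile points of controls for 31 of the mitosis genes and 28 of the replication genes, against 10 and 7 at E11.5 (93.9% and 93.3% at E13.5, against 82.1% of all genes). Ccnb1, mitotic cyclin B, went from 4469 to 1558 in mutants and from 3108 to 1541 in controls. The genes with a positive change in mutants were Mki67, Cenpe, Cenpf and Top2a among the mitosis genes and E2f1 among the replication genes. Mki67, the proliferation antigen, went from 3337 to 14891 in mutants and from 3165 to 13482 in controls. E2f1, a transcription factor of entry into S phase, had changes of 2.22 in mutants and 2.02 in controls. Cdkn1c, an inhibitor of the cell cycle expressed from the maternal copy, went from 2067 to 25660 in mutants and from 6809 to 22837 in controls. Its difference of 1.89 (SE 0.35, adjusted p = 0.000187) was one of the 10 smallest p in that direction, and at E13.5 its ratio was 0.17 (SE 0.07).

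Many mitotic promoters carry a CCAAT box and a cell cycle homology region with the core TTTGAA. The promoters of 3 mitosis genes with large changes are shown, from 250 bases before to 50 after the RefSeq start, on the strand of the gene (GRCm38.p6). Capitals mark CCAAT and TTTGAA and, on the other strand, ATTGG and TTCAAA. In Cdca8 the last 2 matches overlap.
Spc25 (chr2:69206164-69206463, minus strand): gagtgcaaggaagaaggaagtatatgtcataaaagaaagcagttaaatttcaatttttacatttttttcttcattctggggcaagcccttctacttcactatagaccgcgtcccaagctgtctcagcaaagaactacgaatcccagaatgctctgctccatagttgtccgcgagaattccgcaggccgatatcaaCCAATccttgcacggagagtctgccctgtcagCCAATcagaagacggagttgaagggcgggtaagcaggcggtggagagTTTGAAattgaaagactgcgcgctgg
Cdca8 (chr4:124936868-124937167, minus strand): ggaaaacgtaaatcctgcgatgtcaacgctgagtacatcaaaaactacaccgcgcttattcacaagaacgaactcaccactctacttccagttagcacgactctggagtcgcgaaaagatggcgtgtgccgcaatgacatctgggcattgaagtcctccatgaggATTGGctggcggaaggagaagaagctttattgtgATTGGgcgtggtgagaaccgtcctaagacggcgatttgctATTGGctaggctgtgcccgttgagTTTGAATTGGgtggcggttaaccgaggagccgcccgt
Ect2 (chr3:27153829-27154128, minus strand): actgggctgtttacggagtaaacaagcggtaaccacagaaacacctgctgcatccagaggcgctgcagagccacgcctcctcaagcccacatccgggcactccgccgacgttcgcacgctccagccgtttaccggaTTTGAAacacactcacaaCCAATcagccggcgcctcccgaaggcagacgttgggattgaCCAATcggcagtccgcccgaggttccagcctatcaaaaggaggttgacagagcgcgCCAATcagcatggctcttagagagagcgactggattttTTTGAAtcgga
Of the 28 followed mitosis genes with a promoter in the table, 82.1% held CCAAT, 78.6% held TTTGAA and 71.4% held both, against 37.9%, 18.1% and 7.12% of all 27025 promoters of that length. Both motifs were present in 69.2% of the 13 that were lower by 2-fold or more in mutants and in 73.3% of the 15 that were not, shares that are close. Spc25, a kinetochore subunit, went from 1778 to 628 in mutants and from 1527 to 663 in controls. Cdca8, of the chromosomal passenger complex, went from 2232 to 798 in mutants and from 1625 to 783 in controls. Ect2, which drives cytokinesis, went from 1171 to 433 in mutants and from 835 to 415 in controls.

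Pericyte markers did not move as one group. Of 20 followed, 7 were higher at E13.5 by 2-fold or more in mutants and none lower, against 4 higher and 5 lower in controls. Over all genes 25.8% were higher and 18.2% lower in mutants, and 20.8% and 15.4% in controls. The median was 0.56 in mutants and -0.17 in controls, and the E13.5 rank was within 2 percentile points of controls for 11 (55%, against 82.1% of all genes), and the E11.5 rank for 7. Pdgfrb, whose promoter drives Cre, went from 4474 to 7973 in mutants and from 4200 to 7160 in controls, and stood at percentiles of 97.5 and 98.2 in mutants. Higd1b, another marker of brain pericytes, was not among the genes followed. Cspg4, the NG2 proteoglycan, went from 309 to 4238 in mutants and from 611 to 4562 in controls, so a mean called lower at E11.5 (deposited FDR 0.00636) had a log2 ratio of -0.11 (SE 0.33) at E13.5. Abcc9, a subunit of the potassium channel of pericytes, went from 320 to 1125 in mutants and from 639 to 1342 in controls. Kcnj8, the pore of that channel, went from 381 to 432 in mutants and from 662 to 393 in controls, and the difference of 0.94 (SE 0.23) passed with an adjusted p of 0.0115. Notch3, a receptor that maintains mural cells, went from 1104 to 4786 and from 1366 to 4595.

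The authors' deposited table called 4 pericyte markers at E13.5, 1 lower in mutants and 3 higher (0.164% and 0.224% of all genes). Rgs5 (chr1:169655501-169695813), a regulator of G protein signalling and the classical marker of brain pericytes, had 490 in mutants and 2034 in controls at E11.5 and 1965 and 2933 at E13.5. Its log2 ratio went from -2.05 (SE 0.62, deposited FDR 0.037) to -0.58 (SE 0.11, deposited FDR 0.000219), and the difference of 1.47 had an adjusted p of 0.282. Gja4 (chr4:127311421-127314039), the gap junction protein connexin 37, had 97.7 in mutants and 140 in controls at E11.5 and 208 and 94.4 at E13.5. Controls thus went down by 1.00 on the log2 scale where mutants went up by 0.64, a difference of 1.66 (SE 0.28, adjusted p = 1.68e-05), and the E13.5 ratio was 1.14 (deposited FDR 1.19e-06). Cox4i2, a subunit of cytochrome oxidase expressed in pericytes, followed the same course, from 55.8 to 110 in mutants and from 70.3 to 60.5 in controls, a difference of 1.19 (adjusted p = 0.0395). Cd248, endosialin, a glycoprotein of mural cells and fibroblasts, went from 5275 to 6829 in mutants and from 5899 to 5521 in controls (E13.5 log2 ratio 0.31, SE 0.08, deposited FDR 0.0331). Smooth muscle contractile genes had no common direction, with 4 higher and 5 lower of 18 in mutants and medians of -0.32 and -0.29. Over all genes 25.8% were higher and 18.2% lower in mutants. Within 2 percentile points of controls were 55.6% of the 18 at E11.5 and 50% at E13.5. Acta2, smooth muscle actin, changed by 0.32 in both genotypes, and Des, desmin, stayed above controls at both stages, at 242 against 124 and at 219 against 105.

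The other pathway lists were as follows. Over all genes 25.8% were higher by 2-fold or more in mutants and 18.2% lower, and at E13.5 82.1% were within 2 percentile points of controls. The share was 71.4% for the IGF system, 63.6% for Wnt genes and 57.6% for angiogenic genes. It was 72.2% for nitric oxide and cGMP genes, 68.8% for matrix proteases and inhibitors and 76.5% for Notch genes. The IGF system had 10 of 14 higher by 2-fold or more in both genotypes, with medians of 2.57 and 1.79. Igf2, a growth factor, went from 8753 to 169710 in mutants and from 15538 to 167133 in controls, a difference of 0.85 (adjusted p = 0.0837). Igfbp7, a binding protein found in vessels, went from 11.4 to 149.9 in mutants and from 81.8 to 222 in controls, a difference of 2.28 (adjusted p = 0.00112). Wnt pathway genes had 21 of 33 higher and none lower in mutants, with medians of 1.56 and 0.90, and the Wnt inhibitor Apcdd1 differed by 1.47 (adjusted p = 0.00391). Angiogenic ligands and receptors had 17 of 33 higher and 4 lower, with medians of 1.13 and 0.67. Vegfa, the main endothelial growth factor, went from 110 to 3118 in mutants and from 260 to 3282 in controls, a difference of 1.16 (adjusted p = 0.0477). Angpt2, a ligand that loosens the contact of pericytes with endothelium, stayed above controls, at 667 against 416 at E11.5 and 324 against 217 at E13.5 (log2 ratio 0.58, SE 0.13, deposited FDR 0.00544). Nitric oxide and cGMP genes had 10 of 18 higher and none lower, with medians of 1.21 and 0.45, and matrix proteases and inhibitors 17 of 32 higher and 1 lower, with medians of 1.08 and 0.80. Adamts5, an aggrecanase, differed by 1.39 (adjusted p = 0.0011). Notch genes had 6 of 17 higher and 3 lower, and Nrarp, a Notch target, differed by 1.66 (adjusted p = 0.0386) and was higher in mutants at E13.5, at 379 against 251.

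Ribosomal protein genes had a median of 0.61 in mutants and 0.77 in controls. In mutants 22 of 74 were higher by 2-fold or more, against 25.8% of all genes, and 2 were lower, against 18.2%. At E13.5 72 of 74 were within 2 percentile points of controls, against 82.1% of all genes. Cholesterol synthesis genes had 10 of 22 lower and 1 higher in mutants, with medians of -0.90 and -0.68, and all 22 were within 2 percentile points of controls at E13.5, against 7 at E11.5. Genes of hypoxia and glycolysis had medians of -0.03 and -0.09.

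**Figure D3:**
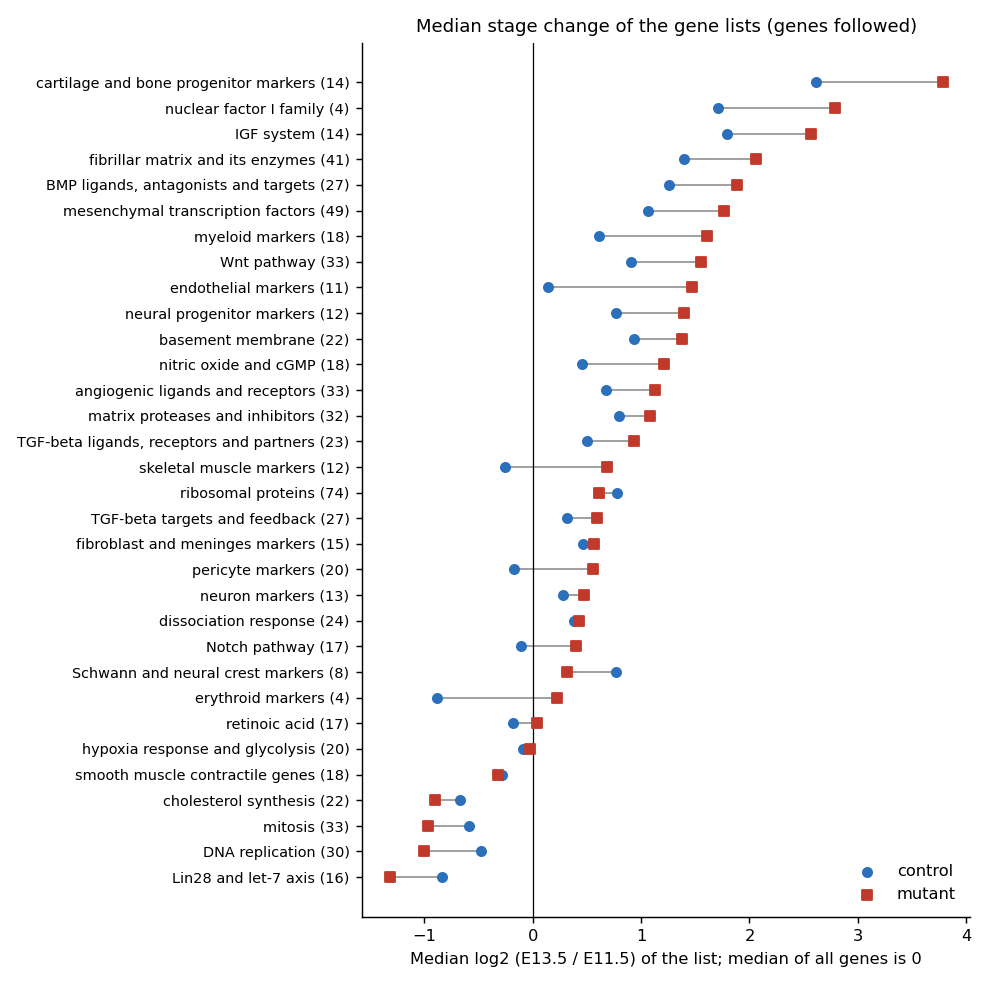
Median stage change, log2(E13.5/E11.5), of the 32 gene lists with at least 4 genes followed, in controls (blue circles) and mutants (red squares), with the number of genes followed in brackets and the median of all genes at 0. The fibrillar matrix list stands at 1.39 in controls and 2.06 in mutants, and the Lin28 and let-7 list at -0.83 and -1.32.

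At E13.5 most genes followed had a similar rank in mutants and controls, and the share was slightly lower among stage-dependent genes. In controls 7173 genes changed by 2-fold or more between the stages. Of these 5727 (79.8%) lay within 2 percentile points of their control rank in mutants at E13.5, against 37.8% at E11.5. Over all genes followed the shares were 82.1% and 42.6%, so the stage-dependent genes stood a little below the background at both stages. Among genes that changed by 4-fold or more in controls the E13.5 share was 73.8%. The 4147 genes higher at E13.5 in controls were 32.3% similar at E11.5 and 79.6% at E13.5, and their median log2 ratio of mutant to control went from -0.37 to -0.02. The 3026 lower at E13.5 went from 45.3% to 80.2%, with a median ratio of 0.08 and then 0.03. Control means enter both the choice of these genes and the ratios, so the signs at E11.5 and E13.5 are given as values only. Of all genes with an implied SE at E13.5, 72.6% had a 95% interval of the ratio within 1.5-fold of 1.

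**Figure D4:**
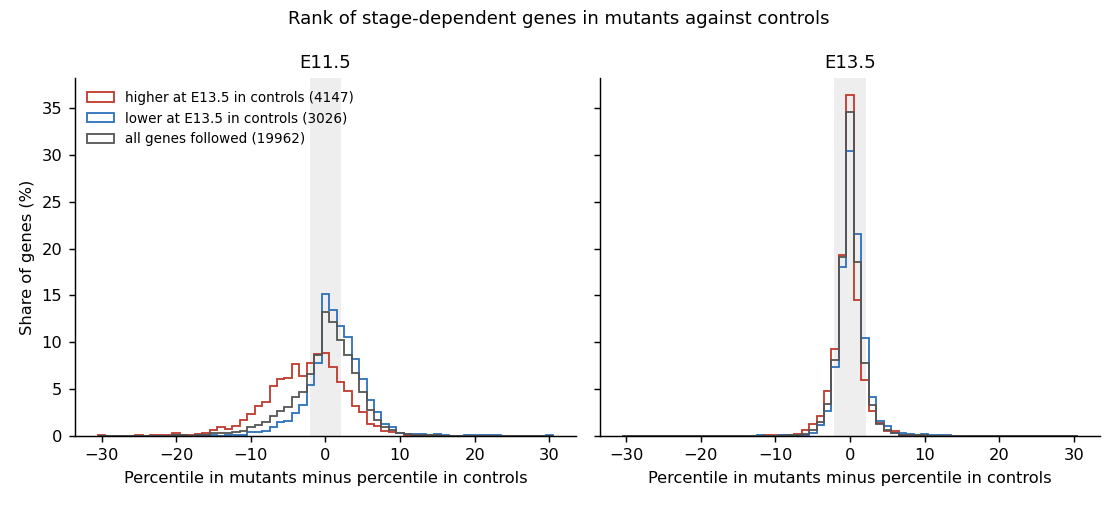
Percentile of the group mean in mutants minus that in controls, for E11.5 (left) and E13.5 (right), as the share of genes in bins of 1 point, with the grey band at 2 points on either side of 0 and values past 30 placed at the ends. The genes higher at E13.5 in controls (red) are 32.3% inside the band at E11.5 and 79.6% at E13.5.

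Outside that range lay 1446 stage-dependent genes (20.2%), against 17.9% of all genes followed. The authors' deposited table called 38 of the control stage-dependent genes at E13.5, 0.571% of those with an FDR, against 0.388% of all genes in that table. Of these, 22 were higher and 16 lower in mutants. The control E13.5 mean enters both the choice of these genes and their ratios. The share called and the positions that follow are therefore given as values only. In the direction of the control change, the mutant mean at E13.5 lay short of the control mean for 31 of the 38 and past it for 7. Of the 31, 15 were higher and 16 lower at E13.5 in controls. This position uses E13.5 means only. Among the 31 the mutant stage change could be larger, as for Erg (4.69 against 2.77 in controls), or smaller, as for Trpc6 (-0.77 against -2.25). Sned1, a matrix glycoprotein (chr1:93235841-93301065), lay furthest past the control mean, going from 966 to 12528 in mutants and from 1334 to 5887 in controls. Its E13.5 log2 ratio of 1.09 (SE 0.10) had the smallest deposited FDR of the 38, 4.84e-21, and its stage change differed by 1.56 (SE 0.31, adjusted p = 0.000589). Pappa, a protease that frees IGF, was also past the control mean, at 1818 against 1311. Trpc6, a cation channel of smooth muscle (chr9:8544142-8680741), fell short, since controls went from 90.4 to 25.6 while mutants went from 92.7 to 74.5. The difference was 1.502 (SE 0.42, adjusted p = 0.0394). Tinagl1, a matrix protein of vessels, went from 297 to 189 in mutants and from 218 to 98.0 in controls. Scx, the tendon factor scleraxis, went from 12.4 to 243 in mutants and from 26.9 to 449 in controls. Among the 10 largest rank differences of stage-dependent genes was Phospho1, a phosphatase of mineralizing bone, whose mean of 525 in mutants against 283 in controls was not called (log2 ratio 0.89, SE 1.11). Igdcc3, an immunoglobulin superfamily gene of early embryos, went from 1492 to 282 in mutants and from 544 to 128 in controls, and Adm, adrenomedullin, from 151 to 68.5 and from 83.7 to 33.8.

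Genes that the authors' table called different at E11.5 were read again at E13.5, in libraries that had no part in the choice. At E11.5 the table called 646 of 19301 genes (3.35%), 124 higher (0.642%) and 522 lower (2.7%) in mutants. The 519 called lower and followed had a median log2 ratio of -1.05, or 2.08-fold, at E11.5 and of -0.03 at E13.5. For 517 of them the ratio was closer to 0 at E13.5, and for 414 (79.8%) the 95% interval lay within 1.5-fold of 1, against 72.6% of all genes. A choice on a large E11.5 ratio favours a smaller ratio on a second reading. The 517 and the fall of the median ratio are thus given as values only. The stage change of the 519 genes had a median of 2.10 in mutants and 1.00 in controls. The E11.5 ratio chose these genes and is also a term of that difference, so a larger mutant change was fixed by the choice and is given as a value only. At E13.5 only 7 of the 515 with an FDR were called lower again (1.36%, against 0.164% of all genes), and 1 was called higher. The 124 called higher went from a median ratio of 0.74 to 0.07, with 76 (61.3%) inside 1.5-fold, and 8 of 117 were called higher again (6.84%, against 0.224% of all genes). The fall of that median is likewise given as a value only. At an unadjusted p under 0.05 at E13.5, in either direction, were 57 of the 519 (10.98%) and 20 of the 124 (16.1%), against 3.95% of all genes followed.

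**Figure D5:**
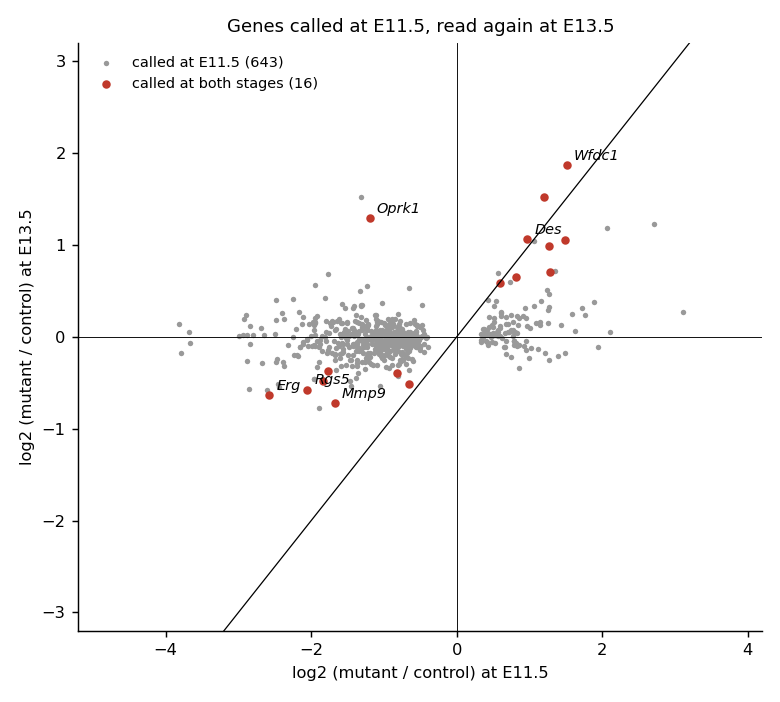
Log2 ratio of mutant to control at E11.5 (x axis) and at E13.5 (y axis) for the 643 genes called at E11.5 and followed, with the 16 called at both stages in red and the diagonal marking an equal ratio. Nearly all points lie near 0 on the y axis, and Oprk1 is the red point with opposite signs.

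Of the 16 genes called at both stages, 7 were lower and 8 higher each time. The lower ones include Rgs5, Runx1, Mmp9 and Erg. Mmp9, a gelatinase, had 32.5 in mutants and 104 in controls at E11.5, and 680 and 1123 at E13.5. Erg, an ETS factor of endothelium and cartilage, had 34.1 and 203 at E11.5, and 1203 and 1868 at E13.5, and its stage change differed by 1.94 (adjusted p = 0.0391). The higher ones include Des, Trim71, Eno3 and Wfdc1. Eno3, the muscle enolase, had 1161 and 479 at E11.5, and 230 and 142 at E13.5. Wfdc1, a secreted protease inhibitor, had 136 and 47.6 at E11.5, and 24.6 and 6.75 at E13.5. Oprk1, the kappa opioid receptor, went from 17.6 to 48.5 in mutants and from 40.4 to 19.8 in controls, so that it was called lower at E11.5 and higher at E13.5, with a difference of 2.49 (SE 0.51, adjusted p = 0.000891).

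Markers of other cells also changed with stage, and their part in the results above was not tested. Of 18 myeloid markers, 12 were higher at E13.5 by 2-fold or more in mutants and 2 in controls, with medians of 1.61 and 0.61. Their summed means went from 1702 to 7640 in mutants and from 3336 to 7413 in controls, and Spi1, which specifies myeloid cells, differed by 1.65 (adjusted p = 0.0208). Of 16 endothelial markers 11 were followed, and Pecam1, Tie1, Cldn5, Sox17 and Slco1c1 were not. Summed, the 11 went from 701 to 3540 in mutants and from 1299.95 to 3766 in controls, of which Erg made up 1203 and 1868 at E13.5. Cdh5, the endothelial cadherin, went from 172 to 1013 and from 252 to 876. Only 4 of 12 erythroid markers were followed. Fibroblast and meninges markers had medians of 0.57 and 0.47, and 24 genes of the response to dissociation had 0.43 and 0.38. Within 2 percentile points of controls at E13.5 were 93.3% of the fibroblast and meninges markers and 45.8% of the dissociation genes. The median mutant percentile of these lists at E13.5 was 97.4 and 91.6, near the top of the scale, so the shares are given as values only. The mutant myeloid sum was thus lower than the control sum at E11.5 and close to it at E13.5, as for many genes described above. The closeness of the endothelial sums at E13.5 rested on Erg. The 11 endothelial markers had a median log2 ratio of mutant to control of -0.94 at E11.5 and 0.35 at E13.5. At E13.5 18.2% of them were within 2 percentile points of controls and 66.7% of the myeloid markers were, against 82.1% of all genes followed. In the endothelial mutant libraries at E13.5, the genes higher with stage in mutant pericytes had a median percentile of 41.9 and those lower one of 63.2, against 54.9 for all genes followed.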

How the data were processed

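Per the labels' protocols, cells of mouse brain were sorted by flow cytometry, their RNA was prepared with a KAPA mRNA kit, and a NovaSeq was used for sequencing. The submitters' processing notes name Partek, Bowtie2 and DESeq2, without versions, and the mm10 build. The deposited tables give, per the file headers, the authors' group means (LSMean, on a normalized count scale and used here as a signal), the ratio of mutant over control, a signed fold change (a score: the ratio, or minus its inverse below 1), the p-value and the FDR. Each table was normalized by the authors separately. No counting interval is given, since the depth per library is unknown, and p-values measure only the spread between samples, which may be technical.

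The stage change was log2 of the E13.5 over the E11.5 mean, with its median set to 0 over the genes followed. A percentile rank was taken over those genes in each group. Near the top of the scale 2 points span a wider range of means than in the middle, so shares within 2 points depend on level. At E13.5 Sned1, at 12528 against 5887, had percentiles of 99.1 and 97.0, and Kitl, at 409 against 315, had 52.6 and 47.3. The SE of each log2 ratio was the size of the log2 ratio divided by the normal quantile of its deposited p-value. The difference of the stage changes was tested by a normal (Wald) test with these SE and adjusted by Benjamini-Hochberg over 19962 genes with scipy 1.17.1 and pandas 2.3.3 in Python 3.11.15 (numpy 2.4.6, figures with matplotlib 3.10.9). Tested on simulated data for that comparison, with 19962 genes, it recovered 53% where the simulated log2 change was 1 (100 genes) and 76% where it was 2 (100 genes), and called 6 unchanged genes. The simulated ratios were drawn with the implied SE, which fixed the width of their statistics at that of a standard normal. In the data the statistics were 1.30 times as wide, so the simulation gives no error rate for the real calls. Genes called in the authors' tables had a deposited FDR under 0.05. Coordinates and 3′ untranslated regions came from GENCODE M21, promoters and microRNAs from RefSeq tables (GRCm38.p6). Reads of overlapping or antisense genes and of near-identical copies may not have been told apart.

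Members and gene lists were chosen with earlier results of these data known. Named genes were Tgfbr1, the 12 largest changes in each direction, up to 4 members of each list in each direction, the 10 smallest p of the difference in each direction, the 10 largest rank differences, and stage-dependent genes called at E13.5, most with a mean of 100 or more and without predicted genes. Other genes were named after their values were seen. Alternatives were other scalings, pseudocounts, filters, thresholds and a rescaled spread. Those restricted to protein-coding genes, to genes overlapping no other or to genes off the X chromosome were chosen after seeing the data.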

Additional observations from a re-analysis of the deposited data

Results flagged for a closer look

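The stage change differed between mutants and controls, by the normal test of the difference, for 236 genes in the positive and 15 in the negative direction. Of the genes named here 51 were among them, 47 more positive in mutants and 4 more negative. Among transcription factors the mutant change minus the control change, on the log2 scale, was 1.18 for Nfia, 1.20 for Nfib, 1.01 for Nfic, 3.60 for Nfix, 3.61 for Runx2, 2.67 for Dlx5, 3.73 for Dlx6, 2.14 for Osr2, 2.81 for Hic1, 1.64 for Klf4, 1.85 for Tbx2, 1.94 for Erg, 1.65 for Spi1 and -2.05 for Sall4. For secreted signals, their antagonists and binding proteins it was 2.28 for Igfbp7, 0.83 for Igfbp5, 0.79 for Igfbp2, 1.86 for Fst, 2.96 for Inhba, 2.04 for Tgfb1, 0.83 for Tgfb2, 2.39 for Grem1, 2.61 for Bmper, 1.22 for Nog, 1.47 for Apcdd1, 1.16 for Vegfa and 1.60 for Penk. Enzymes of retinoic acid had 2.04 for Aldh1a2 and 2.06 for Cyp26b1. Matrix genes and their modifiers gave 0.88 for Col6a2, 2.00 for Col14a1, 1.00 for Col4a6, 1.64 for Eln, 1.35 for Fmod, 1.26 for Ogn, 1.38 for P4ha3, 1.94 for Matn4, 1.39 for Adamts5, 2.23 for Adamtsl2 and 1.56 for Sned1. Pericyte markers gave 0.94 for Kcnj8, 1.19 for Cox4i2 and 1.66 for Gja4. Other genes named here gave 1.89 for Cdkn1c, 1.66 for Nrarp, 1.502 for Trpc6, 2.49 for Oprk1, 1.38 for Abca1, -1.22 for Corin, -0.71 for Mest and -2.05 for Dpep1. Corin, a protease of the cell surface, went from 426 to 432 in mutants and from 215 to 508 in controls, and Mest, an imprinted gene, from 66698 to 23288 and from 37295 to 21279. Penk, a neuropeptide precursor, went from 2411 to 3871 in mutants and from 8288 to 4391 in controls.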

How the results depend on the processing

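No paired analysis was possible because the tables hold 1 mean per group, and leaving out a library was not possible for the same reason. Stage cannot be told apart from the separate processing of each table, and low means, near 1 at E11.5, limit the size of the largest changes. Genes lower at E13.5 in mutants numbered 2416 with the median of genes of 1000 or more set to 0. A 4-fold threshold gave 2189 higher and 621 lower. Protein-coding genes alone gave 2406 lower, and genes overlapping no other gave 2216 higher and 1453 lower, where fewer genes were counted. The share of control stage-dependent genes with a similar rank was 55.1% within 1 percentile point and 97.7% within 5, 83.5% with a mean of 100 or more, and 73.8% at 4-fold in controls, where 19 were called at E13.5. Over all genes it was 57.2% within 1 point and 98.4% within 5. At an adjusted p of 0.1 the difference passed for 397 genes in the positive and 34 in the negative direction, and with the spread rescaled for 6 and 0. Unadjusted p values under 0.05 numbered 2527, or 969 with the spread rescaled. At an FDR of 0.1 in both tables, 857 genes were lower at E11.5, 12 of them again at E13.5, and 272 were higher. List medians changed sign for retinoic acid, from 0.04 to -0.17 with scaling to the sum, for hypoxia and glycolysis, from -0.03 to 0.0195 with a pseudocount of 10, and for erythroid markers, from 0.22 to -0.0193 with a pseudocount of 10. The cause was not tested. A pseudocount of 10 moved the mutant change of 13 genes with low means in 1 group, among them Nfix from 8.79 to 7.91, Grem1 from 5.42 to 4.22 and Tgfb1 from 4.85 to 3.85, and changed the sign of none of them. With the spread rescaled 45 of the named genes lost the call.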
